A study of Mus musculus with 8 samples.

Results

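Open chromatin of resting wild-type macrophages was described here as the regions that were called in both untreated wild-type libraries of an ATAC-seq study of mouse macrophages. ATAC-seq uses the Tn5 transposase to place sequencing adapters into DNA that is not wrapped tightly, so that reads pile up over open regions. Peaks of the 2 lists on chromosomes 1 to 19 were merged where they shared 1 bp or more, and a region was kept when each list had a peak in it. This gave 47922 regions, of 75252 regions in the merged lists of all 8 libraries of the study. The study crossed genotype (wild type or Lamin-A knockout) with treatment (none or lipopolysaccharide), with 2 libraries in each of 4 groups, to examine the effect of that bacterial molecule on open chromatin and the role of this nuclear lamina protein. The group used here is wild type with no treatment. Its cells came from mouse bone marrow cultured for 7 days in 60 mm dishes, were frozen in medium with 5% DMSO, thawed, and tagmented, with 10 cycles of PCR. The labels name neither strain, sex nor age, do not say whether replicates 1 and 2 came from different animals, and do not give the growth factor in the culture. The spread between the libraries may therefore be technical, and no test was made in a single group of 2.

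Macrophages are phagocytes that engulf microbes and dead cells, digest them in lysosomes and sense microbial molecules through receptors that start an inflammatory response. Their identity depends on a few transcription factors, among them PU.1 (encoded by Spi1), C/EBP family members and IRF8, which bind promoters and distant enhancers of myeloid genes together with signal-dependent factors. PU.1 is an ETS family factor that binds sites around a GGAA core, and many of its sites lie far from gene starts, so the open regions of a macrophage mark both promoters and enhancers.

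The promoters of macrophage genes differ in their content of CpG dinucleotides, and the sequences of 10 open promoters are shown to set CpG-poor beside CpG-rich ones. Each window runs from 250 bases before to 50 bases after a RefSeq start site (GRCm38.p6, the mm10 build), is given 5′ to 3′ on the gene's strand, and was overlapped by a region of both lists. Capitals mark every match, on either strand, to 7 short motifs. The letters AGGAAGT stand for the ETS sites that PU.1 prefers, and CCGGAAG for the ETS sites usual in promoters rich in G and C. The GC box bound by Sp and Klf factors was searched as GGGCGG, the box bound by NF-Y as CCAAT and the AP-1 site as TGACTCA. The cyclic AMP response element was searched as TGACGTC and the TATA box as TATAAA. Matches were counted for each motif separately, also where their letters overlap. Over all 20084 promoter windows, 9.08% held AGGAAGT, 11.9% CCGGAAG, 47.0% GGGCGG, 38.1% CCAAT, 4.70% TGACTCA, 3.92% TGACGTC and 12.7% TATAAA. Pirb (chr7:3720333-3720632, minus strand), Fcgr1 (chr3:96293920-96294219, minus), Ptprc (chr1:138175256-138175555, minus) and Lyz2 (chr10:117282223-117282522, minus) are the strongest macrophage promoters that held few CpG and an AGGAAGT match. C3ar1 (chr6:122856108-122856407, minus) and Trem2 (chr17:48346151-48346450, plus) are the strongest CpG-poor promoters without that match. Mitf (chr6:97806808-97807107, plus) and Irf8 (chr8:120736108-120736407, plus) are the strongest CpG-rich ones, and the ribosomal protein genes Rpl27 (chr11:101441995-101442294, plus) and Rps6 (chr4:86857318-86857617, minus) stand for promoters used in most cell types.
Pirb: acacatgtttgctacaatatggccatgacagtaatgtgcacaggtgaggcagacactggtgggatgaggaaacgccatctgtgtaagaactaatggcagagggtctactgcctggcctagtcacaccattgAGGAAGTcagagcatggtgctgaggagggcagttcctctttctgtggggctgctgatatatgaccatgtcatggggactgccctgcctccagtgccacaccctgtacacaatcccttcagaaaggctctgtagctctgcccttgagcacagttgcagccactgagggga
Fcgr1: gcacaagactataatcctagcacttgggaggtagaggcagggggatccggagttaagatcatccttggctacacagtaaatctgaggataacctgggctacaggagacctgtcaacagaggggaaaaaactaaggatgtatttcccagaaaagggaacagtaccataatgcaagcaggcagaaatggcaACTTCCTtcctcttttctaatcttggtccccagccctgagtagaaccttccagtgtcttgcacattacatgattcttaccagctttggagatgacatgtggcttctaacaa
Ptprc: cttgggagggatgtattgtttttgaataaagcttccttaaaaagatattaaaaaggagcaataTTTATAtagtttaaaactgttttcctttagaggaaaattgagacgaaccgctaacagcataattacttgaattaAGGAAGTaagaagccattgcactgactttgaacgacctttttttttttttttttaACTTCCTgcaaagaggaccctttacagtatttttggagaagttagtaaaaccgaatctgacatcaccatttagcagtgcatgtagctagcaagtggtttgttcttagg
Lyz2: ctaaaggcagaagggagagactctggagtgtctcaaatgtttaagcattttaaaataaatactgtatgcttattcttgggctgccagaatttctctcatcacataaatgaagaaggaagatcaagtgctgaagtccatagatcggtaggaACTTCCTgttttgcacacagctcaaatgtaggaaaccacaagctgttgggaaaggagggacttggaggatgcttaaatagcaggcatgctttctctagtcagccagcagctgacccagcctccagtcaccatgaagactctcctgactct
C3ar1: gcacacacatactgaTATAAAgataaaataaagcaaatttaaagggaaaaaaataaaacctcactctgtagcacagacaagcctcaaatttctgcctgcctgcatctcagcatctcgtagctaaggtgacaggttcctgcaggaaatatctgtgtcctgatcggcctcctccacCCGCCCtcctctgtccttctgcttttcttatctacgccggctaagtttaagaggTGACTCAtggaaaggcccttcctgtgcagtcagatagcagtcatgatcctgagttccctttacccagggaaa
Trem2: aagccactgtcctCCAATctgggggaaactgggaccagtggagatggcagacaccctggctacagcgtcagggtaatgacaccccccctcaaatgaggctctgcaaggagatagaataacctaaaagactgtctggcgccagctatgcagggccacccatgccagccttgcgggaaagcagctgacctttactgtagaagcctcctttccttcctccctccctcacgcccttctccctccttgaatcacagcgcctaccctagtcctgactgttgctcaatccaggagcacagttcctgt
Mitf: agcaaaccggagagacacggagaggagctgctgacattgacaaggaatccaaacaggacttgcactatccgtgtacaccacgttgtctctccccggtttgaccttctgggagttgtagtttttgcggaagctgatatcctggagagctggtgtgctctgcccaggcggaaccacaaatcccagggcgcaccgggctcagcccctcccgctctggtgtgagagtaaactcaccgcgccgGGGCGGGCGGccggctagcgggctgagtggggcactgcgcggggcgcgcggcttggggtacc
Irf8: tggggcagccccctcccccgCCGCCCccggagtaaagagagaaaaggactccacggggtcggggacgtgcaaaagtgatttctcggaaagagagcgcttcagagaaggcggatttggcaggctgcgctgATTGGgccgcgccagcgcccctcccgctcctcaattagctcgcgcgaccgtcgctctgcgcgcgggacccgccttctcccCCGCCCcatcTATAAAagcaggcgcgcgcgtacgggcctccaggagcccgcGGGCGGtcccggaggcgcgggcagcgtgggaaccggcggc
Rpl27: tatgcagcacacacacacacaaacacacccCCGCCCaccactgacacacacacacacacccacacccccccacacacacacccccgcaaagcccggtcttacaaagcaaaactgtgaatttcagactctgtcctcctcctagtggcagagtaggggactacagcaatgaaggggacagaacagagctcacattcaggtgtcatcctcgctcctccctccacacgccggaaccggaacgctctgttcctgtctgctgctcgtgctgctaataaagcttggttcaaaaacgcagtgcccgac
Rps6: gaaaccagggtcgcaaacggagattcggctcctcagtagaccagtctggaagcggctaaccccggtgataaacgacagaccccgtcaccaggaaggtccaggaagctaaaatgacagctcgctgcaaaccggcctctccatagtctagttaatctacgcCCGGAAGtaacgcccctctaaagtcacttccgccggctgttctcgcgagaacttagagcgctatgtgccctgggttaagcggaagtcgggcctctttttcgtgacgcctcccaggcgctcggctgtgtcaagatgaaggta

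Among the first 4, the AGGAAGT match, or its reverse ACTTCCT, began 119 bases before the start site in Pirb (position -119), at -61 in Fcgr1, at -113 and -58 in Ptprc and at -100 in Lyz2. Pirb encodes an inhibitory receptor, Fcgr1 the high-affinity IgG receptor, Ptprc the CD45 phosphatase of all white blood cells and Lyz2 the lysozyme of myeloid cells. The 300 bases held 1 CpG in each of Pirb, Fcgr1 and Lyz2 and 4 in Ptprc. C3ar1, the receptor for complement fragment C3a, held 5 CpG and an AP-1 match at -22. The window of Irf8 held 38 CpG, 3 GC boxes and a TATA box match at -31, and that of Mitf held 22 CpG and a pair of overlapping GC boxes at -12 and -8. Rps6 had a CCGGAAG match at -91. A match is a run of letters in the reference and no measurement of binding.

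Open promoters were mostly CpG-rich. Of 20084 promoter windows of 16456 protein-coding genes, 9553 (47.6%) were overlapped by a region, and the share rose with CpG content. It was 5.09% of windows with 0 to 2 CpG, 13.3% with 3 to 5, 30.5% with 6 to 10, 67.3% with 11 to 20 and 76.8% with 21 or more. The median window with a region held 22 CpG, against 5 in windows without one. Windows of 1 gene can overlap each other, so they are not independent observations.

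Promoters of macrophage genes were overlapped also where CpG was scarce. Of 25 windows of macrophage identity genes with 0 to 5 CpG, 17 (68.0%) were overlapped by a region, against 551 of 6308 (8.73%) such windows over all genes. The counts were 8 of 10 for pattern recognition receptors and 7 of 14 for inflammatory cytokines and enzymes. They were 7 of 56 for markers of the other blood lineages together and 0 of 15 for genes of non-blood tissues. In windows with 6 or more CpG, 11 of 12 of the macrophage identity list and 9002 of 13776 (65.3%) of all windows were overlapped. Markers of other blood lineages stood at 8 of 41 and non-blood genes at 0 of 15.

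**Figure D1:**
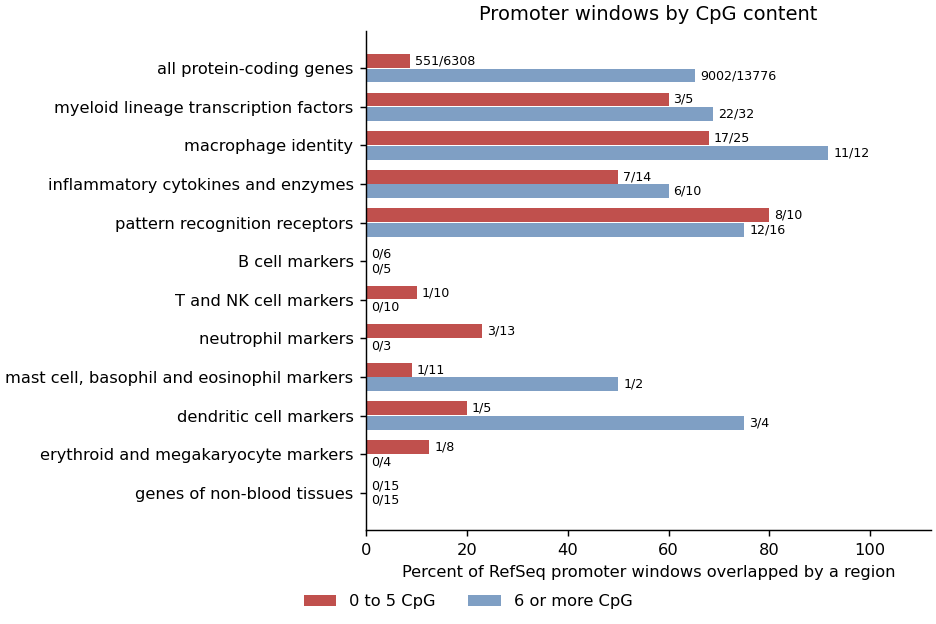
Percent of RefSeq promoter windows (300 bases) overlapped by an open region, for all protein-coding genes and for each gene list with at least 5 windows of 0 to 5 CpG. Red bars are windows with 0 to 5 CpG and blue bars those with 6 or more; the label on each bar gives the windows overlapped and the windows in all, with 17 of 25 for CpG-poor macrophage identity windows against 551 of 6308 overall.

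The letters in open windows differed with CpG content. Among CpG-poor windows, AGGAAGT occurred in 173 of 551 with a region (31.4%) and in 632 of 5757 without one (10.98%). Over windows of any CpG content, it occurred at nearly the same share in windows with a region (9.37%) and without one (8.81%), so the difference showed only after the windows were divided by CpG content. In CpG-poor windows of macrophage identity genes, 6 of the 17 with a region and 2 of the 8 without one held it. AP-1 letters occurred in 11.1% of CpG-poor windows with a region and 7.43% of those without, and TATAAA in 17.2% and 26.8%.

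CpG-rich windows showed other motifs. With 6 or more CpG, CCGGAAG occurred in 22.1% of windows with a region and 6.49% of those without. GGGCGG occurred in 71.4% and 53.7%, and AGGAAGT in 8.02% and 6.20%. Both CCGGAAG and GGGCGG contain a CpG, and CpG content was not matched within this class. The share of windows with a region was 30.5% at 6 to 10 CpG and 76.8% at 21 or more. How much of the motif differences goes with CpG content was not tested. The next values are over all 9553 windows that had a region, whatever their CpG content. The 1911 with the strongest regions held CCGGAAG in 28.5% and CCAAT in 59.0%, and the 1911 with the weakest in 11.4% and 25.6%. For GGGCGG, the same groups gave 69.0% and 66.7%, so the GC box did not separate strong from weak open promoters.

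The lists of the 2 libraries were close in size and in peak height. Replicate 1 had 52869 peaks on chromosomes 1 to 19, covering 22.7 Mb with a median width of 388 bp, and replicate 2 had 53956 peaks, 23.8 Mb and 391 bp. The lowest -log10 p was 7.49 in replicate 1 and 7.55 in replicate 2, and read totals were not used here, so the depth behind a peak is unknown. A place without a region was missing from at least 1 list, and that does not show that its DNA was closed. Of 58340 regions in either list, 47922 (82.1%) were in both, which is 91.3% of the regions of replicate 1 and 89.1% of those of replicate 2. The shared regions covered 23.4 Mb and ranged from 200 to 2622 bp, with a median of 432 bp.

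Height was the fold enrichment that the authors' peak caller gave each peak over its local background, a ratio made within 1 library. The median over shared regions was 8.26 in both lists. The 4560 regions of replicate 1 alone had a median of 4.84 and none above 9.85. The 5858 of replicate 2 alone had 4.83 and none above 10.4. Regions called in 1 library were thus lower at the median, but the highest of them stood above the shared median of 8.26. Across the 47922 shared regions, Spearman's rho between the lists was 0.939, the log2 ratio of replicate 1 to replicate 2 had an SD of 0.23, and 98.0% of regions were within 1.5-fold. This is a correlation across regions, which share libraries and sequence and are not replicates. Summits of the same region were a median of 18 bp apart, and 78.5% were within 50 bp.

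**Figure D2:**
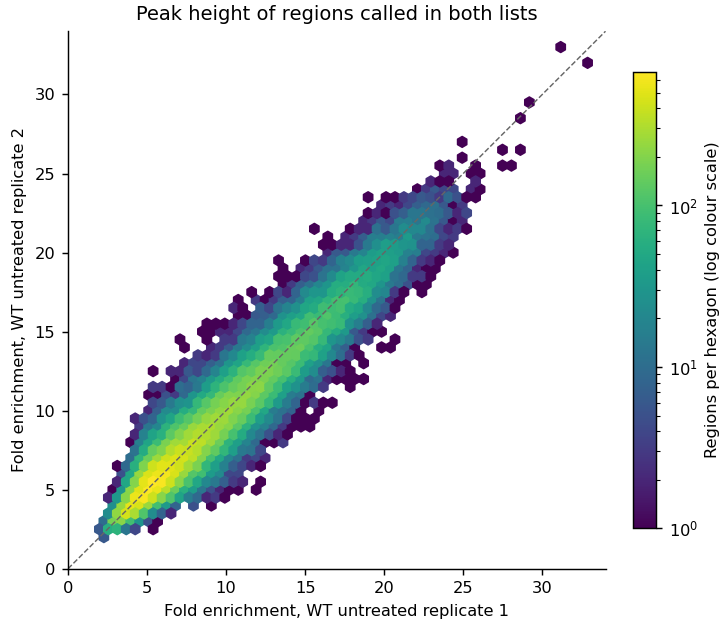
Fold enrichment of each shared region in replicate 1 (x axis) and replicate 2 (y axis), as a ratio over local background; colour gives the number of regions in each hexagon on a log scale and the dashed line marks equal values. The 47922 regions follow the line, with a median of 8.26 on both axes, and the 3 highest regions reach 29.3 or more in both libraries.

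Most open regions of the resting macrophage lay away from gene ends. A region was counted at a gene end when its summit was within 1 kb of either end of a protein-coding gene. That held for 10881 regions (22.7%), while 20550 (42.9%) lay elsewhere inside a gene and 16491 (34.4%) between genes. In the lists taken alone, 21.7% and 21.6% of peaks were at gene ends, and among the 10418 regions of 1 list only the share was 11.1%. Summits of 49.2% of the shared regions were more than 10 kb from any gene end.

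Regions at gene ends were wider and higher. Their median width was 602 bp, against 408 bp inside genes and 404 bp between genes. Their median fold enrichment was 10.7 in each replicate, against 7.65 in each inside genes and 8.07 and 8.05 between genes. Of the 1257 regions of 1 kb or more, 64.3% were at gene ends. The widest overlapped an end of Gm20783 (2622 bp), and the next lay inside Nsd1 (2429 bp), a histone H3 lysine methyltransferase, and inside Nr3c1 (2170 bp), the glucocorticoid receptor. An end of Hsp90ab1, a chaperone gene, followed with 2078 bp.

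Regions at gene ends lay mostly at the start of the gene. Strand was known for 16456 genes (79.6%), and 8097 of them (49.2%) had a region within 1 kb of the 5′ end against 1269 (7.71%) at the 3′ end. The 8042 regions at a 5′ end had median fold enrichments of 11.4 and 11.4 and a median width of 629 bp. The 883 regions at a 3′ end only had 6.92 and 6.99 and 397 bp, below the medians inside genes. Of the 9145 regions within 1 kb of a start site, 61.8% had their summit upstream, with a median position of -38 bp and quartiles of -111 and 43 bp.

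**Figure D3:**
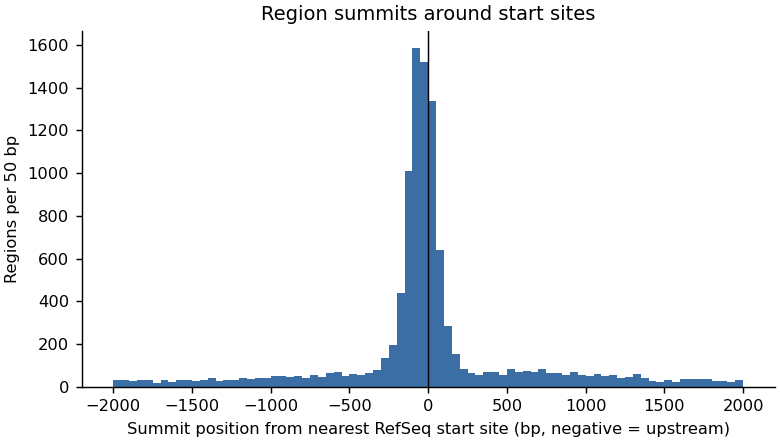
Number of shared regions by summit position from the nearest RefSeq start site, in bins of 50 bp with negative values upstream. The count peaks at 1585 regions between -100 and -50 bp and is as low as 17 in the flanks.

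The share at gene ends was not even over strength. Strength was the mean over both lists of a region's percentile of fold enrichment within the list. In 10 equal classes from the weakest to the strongest, 20.4, 15.2, 14.2, 13.8, 15.3, 17.6, 22.2, 29.5, 34.7 and 44.1% of regions were at gene ends. The weakest class thus held more gene ends than the 5 classes above it, and the lowest share was in class 4. In the strongest 1% (479 regions, with at least 20.3 in replicate 1 and 19.9 in replicate 2), the share was 52.6%.

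**Figure D4:**
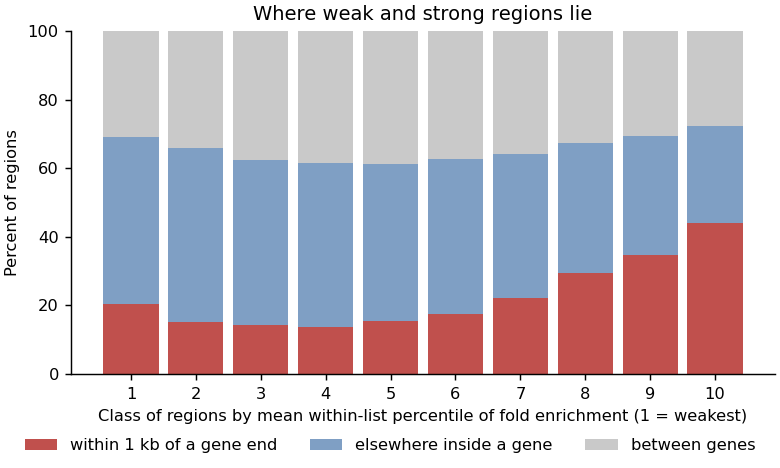
Percent of shared regions within 1 kb of a gene end (red), elsewhere inside a gene (blue) and between genes (grey) in each of 10 equal classes of regions by strength, from weakest (1) to strongest (10). The share at gene ends falls from 20.4% in class 1 to 13.8% in class 4 and reaches 44.1% in class 10.

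By fold enrichment, the strongest regions of all lay away from gene ends. The first lay between genes at chr1:135205434-135205812, 37.9 kb from Gpr37l1, with fold enrichments of 32.9 and 32.3. Another lay inside Rad51b, a recombination gene, at chr12:79498995-79499375, with 29.3 and 29.4. Both were narrow (379 and 381 bp) and had the same first and last base in both lists, which was so for only 214 of 47922 regions (0.447%). No annotation of repeats or blacklisted regions was used here, so whether the heights of these regions reflect open DNA was not tested.

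A further strong region had no protein-coding gene near it, at chr4:28176778-28177224, 636 kb from the closest gene end, with 28.8 and 28.5. Others in the 20 strongest lay inside Usp32, a deubiquitinase gene (28.4 and 26.6), and 17.7 kb from C4b, which encodes complement C4 (27.9 and 25.4). A region at chr6:122862793-122863368, 6.89 kb from the complement receptor gene C3ar1, was the twentieth, with 24.3 and 24.7. It stood above the region over the C3ar1 promoter printed above, which had 19.1 and 15.9. Of the 20 strongest regions, 8 were at gene ends.

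Among regions at gene ends, Zbed5 led with 26.3 and 25.1, followed by Tctn3, a ciliary gene (25.9 and 24.5), and Cdc25c, a phosphatase that starts mitosis (26.1 and 24.3). Ddost, a subunit of the oligosaccharyltransferase, had 24.8 and 25.8, and Nol6, a nucleolar protein gene, 25.7 and 24.2. Wdr19, Flad1, 9930104L06Rik, Gm14548 and Vcl, which encodes vinculin, completed the first 10, all between 23.9 and 26.3 in either list. None of the 10 is in a lineage list.

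The order at the top depended on the column used. When regions were ranked by the deposited -log10 p in place of fold enrichment, 0 of the 20 strongest were the same. By -log10 p, 17 of 20 lay at gene ends, and the median width was 734.5 bp against 540.5 bp by fold enrichment. Stt3a, another oligosaccharyltransferase subunit, Rab40c and Prcc led that order, with fold enrichments of 22.5 and 22.9, 16.7 and 15.2, and 24.1 and 23.2. The twentieth was a region 38.2 kb from Csf2ra, the receptor chain for the myeloid growth factor GM-CSF, at chr19:61266464-61267207, with 18.8 and 17.8.

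Regions were spread over most genes and piled up on a few. A region was assigned to the gene whose span held its summit, or to the gene with the nearest end within 50 kb, which placed 43786 regions (91.4%). Of 20661 protein-coding genes, 13507 (65.4%) had at least 1 region and 7154 had none. Exactly 1 region was found for 4735 genes, 2 for 3099 and 3 for 1767, with a median of 2 among genes that had any. A region within 1 kb of an own end was present for 10537 genes (51.0%). The 704 genes with 10 or more regions (3.41%) held 22.5% of the assigned regions.

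Gene length moved with the count. Genes with 10 or more regions had a median length of 132 kb, against 17.5 kb over all genes. Across the 13507 genes with at least 1 region, Spearman's rho between count and length was 0.411. The part of length in the ranking of genes is therefore given by a rate as well as by the count.

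By count, the densest gene was Lpp, which encodes a focal adhesion protein, with 45 regions (37 inside its 599 kb). Nav2, a cytoskeleton-associated gene, had 39 and Foxp1, a transcription factor that restrains monocyte differentiation, 37. Elmo1, which drives Rac activation during engulfment of dead cells, had 33, as did the homeobox gene Cux1. Sgms1, a sphingomyelin synthase, and Asap1, a regulator of Arf GTPases at podosomes, had 32 each. Rptor (the mTORC1 subunit Raptor), Tns3, Pde4d, Zmiz1 and Aopep had 31 each.

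Runx1, needed to form blood cells, and Abr, a regulator of small GTPases, had 30 regions each. Tmcc3 had 29 and Bach2, a repressor best known in lymphocytes, 28. Arid1b (a chromatin remodelling subunit), Creb5, Dock10 and Gramd1b had 27 each. All 20 genes were at least 207 kb long. Their regions inside the gene ranged from 2.30 per 100 kb in Pde4d to 13.9 per 100 kb in Zmiz1, against 2.64 over all gene spans. Pde4d, at 1302 kb, was thus no denser than the average span.

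By rate, shorter genes led among the 385 with 10 or more regions inside them. With such a minimum count, a short gene has a high rate by construction. Pstpip1, an adaptor that binds pyrin in the inflammasome pathway, had 13 regions inside 50.4 kb, or 25.8 per 100 kb. Irak2, a kinase of Toll-like receptor signalling, had 24.8 per 100 kb, Slc43a2, an amino acid transporter gene, 23.1, Plekha2 21.4 and Ccdc12 20.9. B4galt1, Arap1, Plec, Sla and Arhgef2 followed with 19.5 to 20.2. Sla encodes an adaptor that dampens receptor signalling in blood cells.

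Irak2 also lay in one of the densest stretches of the genome. Windows of 100 kb held up to 22 regions, and 906 of the 11091 windows with any region held 10 or more, with a median of 3. The window at chr9:65500001-65600000 over Ankdd1a, Plekho2 and Pif1 held 22, as did the one at chr17:84100001-84200000 over Thada and Zfp36l2, which encodes a protein that destabilises mRNAs. The next, with 21, was a window with no protein-coding gene at chr8:126800001-126900000, 206 kb from Irf2bp2 and 30.7 kb from Tomm20. Its median fold enrichments were 6.47 and 6.27, below the 8.26 over all shared regions, as was so for all 10 densest windows in replicate 1 and 9 of them in replicate 2.

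The remaining windows of the 10 densest held named genes. Those with Fosb, an AP-1 subunit, and with Arap1 and Stard10 held 20 each. The windows with Tnfrsf1b (TNF receptor 2), with the antigen-processing genes Psmb8, Psmb9, Tap1 and H2-DMa next to Brd2, with Irak2 and Vhl, and with Socs3, the feedback inhibitor of cytokine receptors, held 19 each. The last of the 10, on chromosome 17 over Clic1, Msh5 and Ddah2, also held 19. These counts describe how many separate regions were called, and a merged wide region counts once.

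Every myeloid lineage transcription factor in a list of 24 had at least 1 region, against 65.4% of all genes, and 16 of 24 had one at an own end, against 51.0%. The median was 7 regions per gene, against 1 over all genes, and 8 of 24 had 10 or more, against 3.41%. Their median length of 19.6 kb was close to the 17.5 kb over all genes, but most of the 8 were long. Runx1, Mitf, Zeb2, Pparg and Fli1 were 121 to 225 kb long and Ikzf1 88.0 kb, while Bach1 (34.4 kb) and Irf8 (20.3 kb) were shorter.

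Runx1 led the list with 30 regions (32 in the list of replicate 1 and 33 in that of replicate 2). Mitf, a regulator of lysosomal and osteoclast genes, and Fli1, an ETS factor, had 16 each, Pparg, the nuclear receptor of lipid uptake, 15, and Irf8 13. Bach1, a haem-sensing repressor, had 12, Zeb2 11 and Ikzf1 10. The strongest region of Pparg lay inside the gene at chr6:115462863-115463372 (17.3 and 16.8), and another of 1201 bp lay inside it at chr6:115479889-115481089 (13.7 and 13.9), while the region at its end had 8.70 and 8.85. At this gene the highest regions were thus internal.

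Irf8 was surrounded by regions on both sides. Its promoter region, the one over the sequence printed above, spanned 939 bp with 12.92 and 12.02. Upstream lay a region at chr8:120715970-120716464, 20.2 kb away (12.8 and 12.5), and another at chr8:120725236-120725710, 10.9 kb away (12.2 and 12.4). Downstream of the gene, a region at chr8:120763240-120763651 was 6.74 kb away (10.5 and 10.0). A further one at chr8:120796211-120796622 was 39.7 kb away, with 8.21 and 8.31. The promoter and the distal regions at the top of this order differed by less than 1 unit of fold enrichment.

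Spi1, which encodes PU.1, stood lower than these. It had 7 regions, 6 of them inside the gene, and its highest was at chr2:91096505-91096963 with 8.28 and 8.16, at percentile 54.7. The region at its end had 5.80 and 4.98, at percentile 24.2, and the lowest had 2.56 and 2.67. The median percentile of a gene's strongest region was 86.3 over the 24 factors and 80.9 over all genes with a region. Fold enrichment is relative to local background, so height need not follow the amount of open DNA.

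Cebpa and Cebpb, the C/EBP factors of the myeloid lineage, are short genes with regions around them. Cebpa had 9 regions, the highest 20.4 kb away at chr7:35098696-35099246 (14.7 and 18.3), while that at its end, 1137 bp wide, had 12.8 and 11.5. Cebpb had 7, the highest 7.62 kb away at chr2:167697856-167698316 (13.4 and 11.2), and 6.38 and 5.55 at its end. Klf4 had 6, with 18.98 and 17.46 at chr4:55514673-55515280, 12.2 kb away, and 7.44 and 7.82 at its end. At all 3 genes the highest region was distal in both lists.

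Other factors had few regions. Myb, a progenitor factor, and Gfi1, a granulocyte factor, had 1 region each, both between genes and none at an own end. Nr1h3, the oxysterol receptor LXR alpha, had 2. Egr1 had 3, with 1 at an own end, and Maf and Tfec had 3 each with none there.

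Of 46 macrophage identity genes, 45 had a region, against 65.4% of all genes, and 36 had one at an own end, against 51.0%. Timd4, a receptor of some tissue-resident macrophages, was the exception, with no region in both lists and none in either list alone. The median was 5 regions per gene, and 20.7% of the list's 246 regions lay at gene ends. Sirpa, Ptprc, Msr1 and Fcgr2b had the most, with 10 each.

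Csf1r, the receptor for the growth factor M-CSF, had 8 regions. The highest lay 6.42 kb from the gene at chr18:61098958-61099356 with 10.3 and 9.14, and the next inside it at chr18:61108373-61109041 with 9.85 and 9.02. The region at its end had 3.62 and 2.97, at percentile 2.34. This receptor gene thus had a called but low region at its end and higher ones within a few kb.

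Receptors and integrins showed a range of layouts. Itgam (CD11b) had 8 regions, with 19.4 and 17.3 inside the gene at chr7:128089080-128089688 and 4.44 and 4.41 over its start. Mertk, which binds dead cells, had 7, with 19.96 and 20.39 at chr2:128806501-128807042 beyond the gene and 11.8 and 9.53 at its end. Cx3cr1, the fractalkine receptor, had 8. By strength its first lay 5.36 kb away (17.7 and 17.4) and its second 0.954 kb from an end (18.05 and 16.98). In replicate 1 the second was the higher. Adgre1, which encodes F4/80, had 6, the highest 11.4 kb away (13.3 and 13.1). Cd163, a haemoglobin scavenger, had 3 and none at an own end, but the highest reached 22.0 and 19.2 at 31.2 kb.

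Short genes of the list differed in where the highest region lay. Lyz2 had a single region, over the promoter printed above, with 11.1 and 10.8. Cd68 had 2, the higher with 9.06 and 8.51, and Cd14, the co-receptor for lipopolysaccharide, had 4 with 14.9 and 15.4 at its end. Fcgr1 had 6 regions. By strength its first lay 4.74 kb away at chr3:96277913-96278574 (16.3 and 12.1) and its second over its promoter (13.2 and 12.7). In replicate 2 the promoter region was the higher of these. The highest regions of Tyrobp, a signalling adaptor, and of Trem2, its partner receptor, were distal, 19.2 kb away (18.6 and 15.9) and 3.79 kb away (14.9 and 13.2). For Pirb the promoter was the highest of 4 (17.8 and 14.0), with replicate 1 above replicate 2.

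Lysosomal and phagosomal genes had the highest share of open ends among the 16 lists. All 25 had a region, against 65.4% of all genes, and 24 had one at an own end, against 51.0%, with a median of 5 regions. Psap, Rab7 and the proton pump subunit gene Atp6v0d2 had 9 each, and the protease gene Ctsb and Gpnmb 8 each. Rab7, which directs fusion with lysosomes, had its highest region 11.8 kb away (16.9 and 16.1). Gaa and Mcoln1 had 1 each, at the gene end. The exception at the ends was Npc2, a cholesterol carrier, with 7 regions and none at an own end.

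Pattern recognition genes had regions in these untreated cells. All 24 had a region, against 65.4% of all genes, and 22 had one at an own end, against 51.0%, with a median of 3 against 1. Aim2, a sensor of DNA in the cytoplasm, had 14, and Tlr5, the flagellin receptor, 10. Tlr4, the receptor for lipopolysaccharide, had 9, the highest inside the gene at chr4:66843234-66843669 (16.7 and 14.9), and Tlr2 7, the highest 21.4 kb away (15.2 and 15.9). Nlrp3, the inflammasome sensor, had 7, with 12.9 and 11.5 at the highest. Clec4d and Aim2 had none at an own end.

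Genes of cytokines and inflammatory enzymes, many of which are little expressed without a stimulus, also had regions in the untreated cells. Of 30, 28 had at least 1, against 65.4% of all genes. At own ends the count was 19 (63.3%), against 51.0%, and the median was 4 regions, against 1. Ccl2, a monocyte attractant, and Acod1, the itaconate-producing enzyme, had 8 each, Il1b 7, and Nos2, the inducible nitric oxide synthase, 5. The highest region of Il1b lay 2.31 kb away at chr2:129373192-129373768 with 19.9 and 20.3, while none was at its own end. Tnf had 2, with 10.9 and 9.25 inside the gene, and Il6 had 2, with 10.4 and 10.0 at its end. Cxcl9 and Cxcl10, attractants for T cells, had none assigned, although a region lay within 1 kb of an end of Cxcl10 and was assigned to a neighbouring gene.

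**Figure D5:**
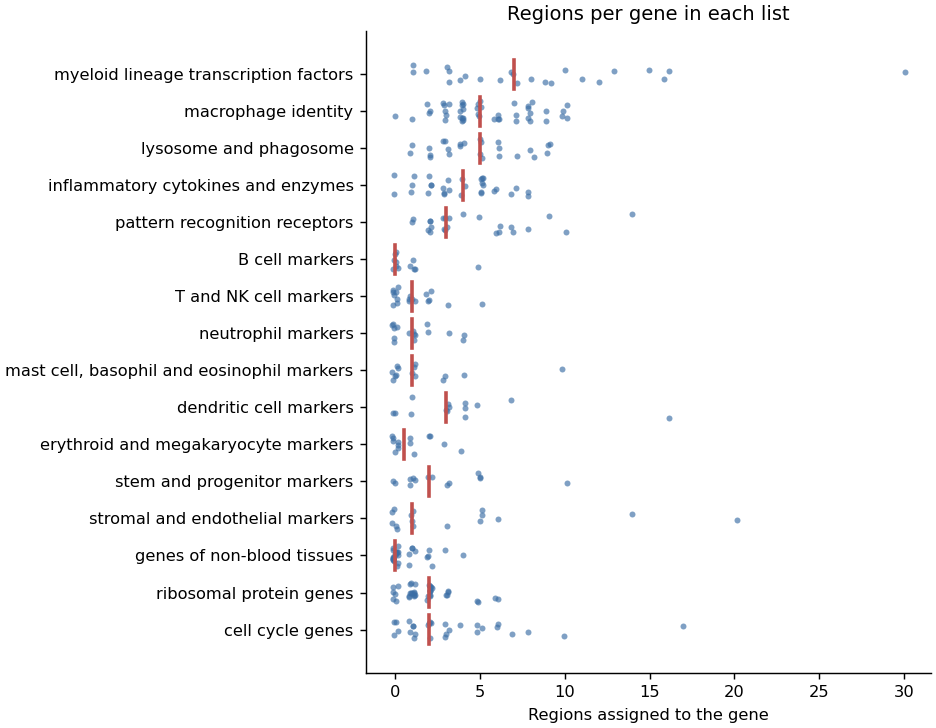
Number of shared regions assigned to each gene of the 16 lists; each point is a gene, moved by a small random amount so that points do not hide each other, and red lines are medians. Medians are 7 for lineage transcription factors and 5 for macrophage identity and lysosomal genes, and 0 for B cell markers and genes of non-blood tissues.

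The label of the cells was checked against markers of other cells, beside 65.4% of all genes with a region and 51.0% with one at an own end. Of 12 B cell markers, 5 (41.7%) had a region and 0 had one at an own end, with a median of 0. Pax5, Ebf1, Cd79a and Cd79b had none, while Ms4a1 (CD20) had 5. The single region assigned to Rag2 reached 19.9 and 19.8. It lay inside the Rag2 span, 3.47 kb from the nearest Rag2 end, and within 1 kb of an end of another gene. Of 19 T and NK cell markers, 11 (57.9%) had a region, which is near the share of all genes, and 5 (26.3%) had one at an own end. Cd3e, Cd3g, Cd8a, Bcl11b, Gzmb and Prf1 had none. Klrb1c had 5 and Cd4 3, and the highest region of Tbx21 had 16.4 and 14.0. Among 16 neutrophil markers, 10 (62.5%) had a region and 6 (37.5%) had one at an own end. Elane, Mpo and Ngp had none, Ltf and Padi4 had 4 each, and Mmp8 had 3, the highest with 18.6 and 18.1. Mast cell, basophil and eosinophil markers had a region in 8 of 14 and one at an own end in 2. For erythroid cells and megakaryocytes these counts were 7 and 4 of 14. The globin genes Hba-a1, Hbb-bs and Hbb-bt had none, while Tal1 had 4, the highest with 15.1 and 12.1.

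Over the 7 lists of other blood lineages together, 65 of 103 genes (63.1%) had a region, close to the 65.4% over all genes. At own ends the count was 31 (30.1%), against 51.0%. Of 14 dendritic cell markers, 12 had a region and 8 had one at an own end, with a median of 3, with 16 at Tcf4 and 7 at Ciita, the regulator of MHC class II genes, but none at Clec9a and Cd209a. The class II genes H2-Aa, H2-Ab1 and Cd74, which macrophages can express too, had 3, 3 and 4. Of 14 stem and progenitor markers, 12 had a region and 6 had one at an own end, with 10 regions at Lmo2 and none at Kit. How much of the signal came from other cells in the culture was not tested.

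Single genes of these lists had high counts or high regions. Ccr3, the eotaxin receptor, had 10 regions, and Ccr2 on the same chromosome had 5. Runx2, an osteoblast factor, had 20 and Vwf, of endothelium and platelets, 14, both in the stromal and endothelial list. Of its 16 genes, 11 (68.75%) had a region, near the 65.4% of all genes. At own ends the count was 3 (18.75%), against 51.0%. The region 11.4 kb from Kdr, the endothelial VEGF receptor, was at percentile 99.9 with 25.1 and 22.9. In Cd3d, a T cell receptor subunit, a region near its end had 18.3 and 19.1. Of the matrix genes of fibroblasts, Col1a2, Col3a1, Dcn and Lum had none, and Col1a1 had 1 at its own end (7.40 and 6.34).

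Genes of non-blood tissues had the lowest share with any region among the 16 lists. Of 30, 11 (36.7%) had a region, against 65.4% of all genes, and 4 (13.3%) had one at an own end, against 51.0%. The median was 0, and none of their 30 promoter windows was overlapped. Alb, Ins2, Myh6 and Krt5 were among the 19 with none. Neurod1, a neuronal and islet factor, had 3, the highest 5.27 kb away with 18.3 and 16.2.

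Of 39 ribosomal protein genes, 33 (84.6%) had a region, against 65.4% of all genes, and 34 (87.2%) had one at an own end, against 51.0%. The median was 2, and 49.3% of their regions were at gene ends. Of the 6 with none, Rplp2, Rps25 and Rps27 had a region at an end that was assigned to a neighbouring gene, and Rpl15 was among those with none at their ends. Rpl27 reached 22.6 and 23.8 over the promoter printed above. Of their 33 open promoter windows, 11 (33.3%) held CCGGAAG, against 2002 of all 9553 open windows. Their median was 21 CpG, and all 33 held 6 or more CpG. None of the 28 open windows of macrophage identity genes held CCGGAAG, but their median was 5 CpG and 17 of them held 0 to 5. Over all genes, CCGGAAG occurred in 2.54% of open windows with 0 to 5 CpG and in 22.1% of those with 6 or more.

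Of 29 cell cycle genes, 25 (86.2%) had a region, against 65.4% of all genes, and 23 (79.3%) had one at an own end, against 51.0%. Cdk6, a kinase of early G1, had 17 regions, Ccnd1 (cyclin D1) 10 and Myc 8. Ccna2, Top2a and Ccnb1 had 1 each, at their ends. Open ends do not show that the cells were dividing.

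MicroRNA genes were seldom under a region themselves. Of 919 hairpins in RefSeq, 56 (6.09%) were overlapped. The pair Mir132 and Mir212 lay under 1 region at chr11:75172947-75173815, with 4.67 and 4.97, and their 3p arms share a seed (bases 2 to 8, in capitals), which is why they are shown.
mmu-miR-132-3p: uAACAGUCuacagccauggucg
mmu-miR-212-3p: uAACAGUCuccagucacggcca

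Over all 919 hairpins, the nearest region was a median of 7.56 kb away, and a median of 4 regions lay within 50 kb. Another 8 hairpins beside Mir132 are named here, chosen after their values were seen. The nearest region to Mir155, induced in inflammation, was 0.656 kb away (7.16 and 4.81), with 3 regions within 50 kb. The nearest to Mir146, a brake on Toll-like receptor signalling, was 5.56 kb away (9.36 and 8.74), with 8 within 50 kb. Mir21a had 15 within 50 kb and Mir142, a blood cell microRNA, 9, the nearest 0.027 kb away with 3.29 and 3.48. Mir146b, Mir125a, Mirlet7e and Mir24-2 had low nearest regions, at 1.501, 2.35, 1.89 and 0.676 kb, with no value above 3.93 in either list. These distances are to hairpins, whose own start sites can lie far away.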

How the data were processed

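The data were 1 deposited peak list for each of the 2 untreated wild-type libraries, each called on its own. BWA 0.7.12, MACS2 and mm10 are named in the submitters' processing notes. The filter behind the lists is not given in the sources used here. Each deposited peak carried a fold enrichment, a ratio over local background made by the authors' peak caller within 1 library. The deposited -log10 p gave an alternative order and cut-off. The deposited -log10 q entered neither, and the deposited score (10 times the -log10 p) was not used further. Summits were deposited as distances in bp from the peak's start.

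Regions were built and counted with Python 3.11.15, pandas 2.3.3 and numpy 2.4.6 (figures with matplotlib 3.10.9), and the merging and the gene assignment were checked on simulated peaks. Genes were 20661 protein-coding RefSeq genes of GRCm38.p6, promoters and microRNAs came from RefSeq tables of the same build, and the promoter table used here holds no window on chromosome 18. Chromosomes X and Y were left out. Of 375 listed genes, 366 were matched on chromosomes 1 to 19. Named genes were the 20 with the most regions, the 20 strongest regions, the 10 strongest at gene ends and away from them, the 10 densest windows of 100 kb, and list members. The printed promoters, the division at 5 CpG, the genes named by rate and the named microRNAs were chosen after their values were seen. Members and lists were chosen with earlier results of these data known. All values describe 1 group, so no test was made. Alternatives were a larger overlap, a minimum -log10 p of 20, the stronger 50% of each list, other distances, another order and each list alone.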

Additional observations from a re-analysis of the deposited data

Results flagged for a closer look

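The sex chromosomes were outside the regions described above and also held peaks in both untreated wild-type lists. Chromosome X had 951 regions called in both lists, and chromosome Y had 14. They stand here because they lie outside the main measurement, and no library served as a background for them. Macrophage genes on chromosome X, such as Cybb, Vsig4, Tlr7, Tlr8 and Tlr13, were for that reason not counted in the lists.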

How the results depend on the processing

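Over 10 results, 67 alternative values were computed, and 55 stayed within 1.5 times the count as reported or, for a share, within the spread of 0.0510 percentage points (SD) between the lists. With the stronger 50% of each list, 24159 regions were shared, 29.8% of them were at gene ends, 70 genes had 10 or more regions, 10 of the 20 densest genes were again among the 20, and 43 genes of other blood lineages had a region. With a -log10 p of at least 20, 24.7% were at gene ends and 454 genes had 10 or more regions. With gene ends taken within 500 bp or 2 kb, the share was 18.4% or 28.3%. Each list alone gave 21.6 to 21.7%, and its regions put 842 to 914 genes at 10 or more. Ranked by -log10 p, 0 of the 20 strongest regions were the same, and the cause was not tested. The 2 stricter settings keep fewer peaks by construction. Of 46 macrophage identity genes, 42 to 45 had a region under the alternatives run. No paired analysis was possible because the regions come from 1 group with no comparison. Peak lists limit what can be said: read depth is unknown, a low peak can be missed in 1 library, the nearest gene need not be the gene a region acts on, and a merged region hides its separate peaks.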
